A study of Mus musculus with 7 samples.

Results

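The genes described here are 10 members of the immediate early response: the AP-1 subunit genes Fos, Fosb, Fosl2, Jun, Junb and Jund, the related factor gene Atf3, the zinc finger factor gene Egr1, Ier2 and the phosphatase gene Dusp1. They were taken from the deposited count table by symbol, and all 10 were found among its 55536 genes. The table comes from bulk RNA sequencing of alpha cells, the glucagon-secreting cells of the mouse islet, sorted by the fluorescence of a tdTomato reporter. The 4 control libraries had the genotype Nkx2.2+/+;Gcg-iCre;Rosa26:tdTomato and the 3 knockout (KO) libraries Nkx2.2fl/fl;Gcg-iCre;Rosa26:tdTomato, on a C57BL/6J background, with the reporter locus written Rosa25 in the design text. Both groups therefore carried the glucagon-driven Cre and the reporter, and only the KO group had an Nkx2-2 gene that Cre could delete. The labels give neither the age or sex of the mice nor whether libraries came from separate animals, so p-values measure only the spread between these samples. One KO count column has a number that no KO title has, and it is called the unnumbered KO library. The question put to the members was whether Atf3 moved with the other genes that tissue dissociation and sorting induce, library by library.

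AP-1 is a dimer of basic leucine zipper proteins, in which a Jun protein pairs with itself or with a Fos or ATF protein and binds a short palindromic DNA site. Its genes are immediate early genes: their transcription starts within minutes of a stimulus, through factors already present in the cell, and their RNAs are short-lived. Enzymatic dissociation of tissue and cell sorting are well known to induce them, so their level in sorted islet cells can reflect handling as well as the state of the cells in the animal. Atf3 is also a target of the integrated stress response, the programme that runs through the factor ATF4.

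Total counts ran from 45483504 to 72456557 per library, with control 4 and the unnumbered KO library the deepest. Control 4 also stood apart in its number of genes with a count, 31024. The other libraries had from 23150 (control 3) to 25873 (the unnumbered KO library), and the reason was not tested. Between 84.4% and 88.9% of counts from 1 to 10 were even, as happens when each mate of a pair is counted on its own. The targeted gene Nkx2-2 had 8596, 11199, 12297 and 9782 normalized counts across controls 1 to 4, against 7758, 7534 and 7694 in the KO group (libraries 1, 2 and unnumbered, the order used throughout), so the KO mean was 73.2% of the control mean (adjusted p 0.0218 by DESeq2 and 0.152 by edgeR). Which exons the deletion removes is not given in the labels. The summed normalized counts of 8 alpha cell markers, glucagon among them, ran from 6417122 to 8411910 in controls and from 2925132 to 4240504 in KO libraries, with 6 of the 8 called lower in DESeq2 and 3 called in edgeR. Those of 7 beta cell markers ran from 333094 to 682866 in controls and from 523430 to 963137 in KO libraries, with Iapp called higher. Of 4 delta cell markers (sums of 196263 to 398978 and 355301 to 632402) Rbp4 was called higher. Of 5 duct markers (8350 to 12381 and 11901 to 12455) Spp1 was called higher. Uncalled, Sox9 and Cftr also had every KO library above every control, a pattern found in 6.07% of the genes tested. Krt7, with 7488 to 11059 normalized counts per library, made up most of the duct sum. In Krt7 and Krt19 (5.87 to 59.9) the groups overlapped. DESeq2 called 4.51% of all genes tested and edgeR 1.05%. Iapp, Rbp4 and Spp1 were called in DESeq2 and not in edgeR (edgeR adjusted p 0.153, 0.0761 and 0.146). The part of these shifts in the members' values was not tested. In bulk RNA, fewer cells of a type and less RNA per cell cannot be told apart.

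Atf3 alone of the 10 members was past the threshold, an adjusted p under 0.05 over all genes tested with DESeq2, and it was higher in KO. It was not past it in edgeR (adjusted p 0.108), where 0 members were called and 2 had an unadjusted p under 0.05. In DESeq2, 2.24% of the 17571 genes tested were called higher, 2.27% lower and 4.51% in either direction, and in edgeR 1.05% were called. An unadjusted p under 0.05 in DESeq2 was found for 3 members, Atf3, Ier2 and Jun, and for 12.2% of all genes tested. All 10 members had a log2 fold change above 0, from 0.05 to 0.78 with a median of 0.34, where 51.8% of all genes tested lay above 0 and their median was 0.01. Without KO 2 the number above 0 was 8, and it was 9 without control 1 and without control 4. The median was 0.21 without control 1. In Atf3 and Ier2 every KO library lay above every control library, a pattern found in 6.07% of the genes tested.

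**Figure D1:**
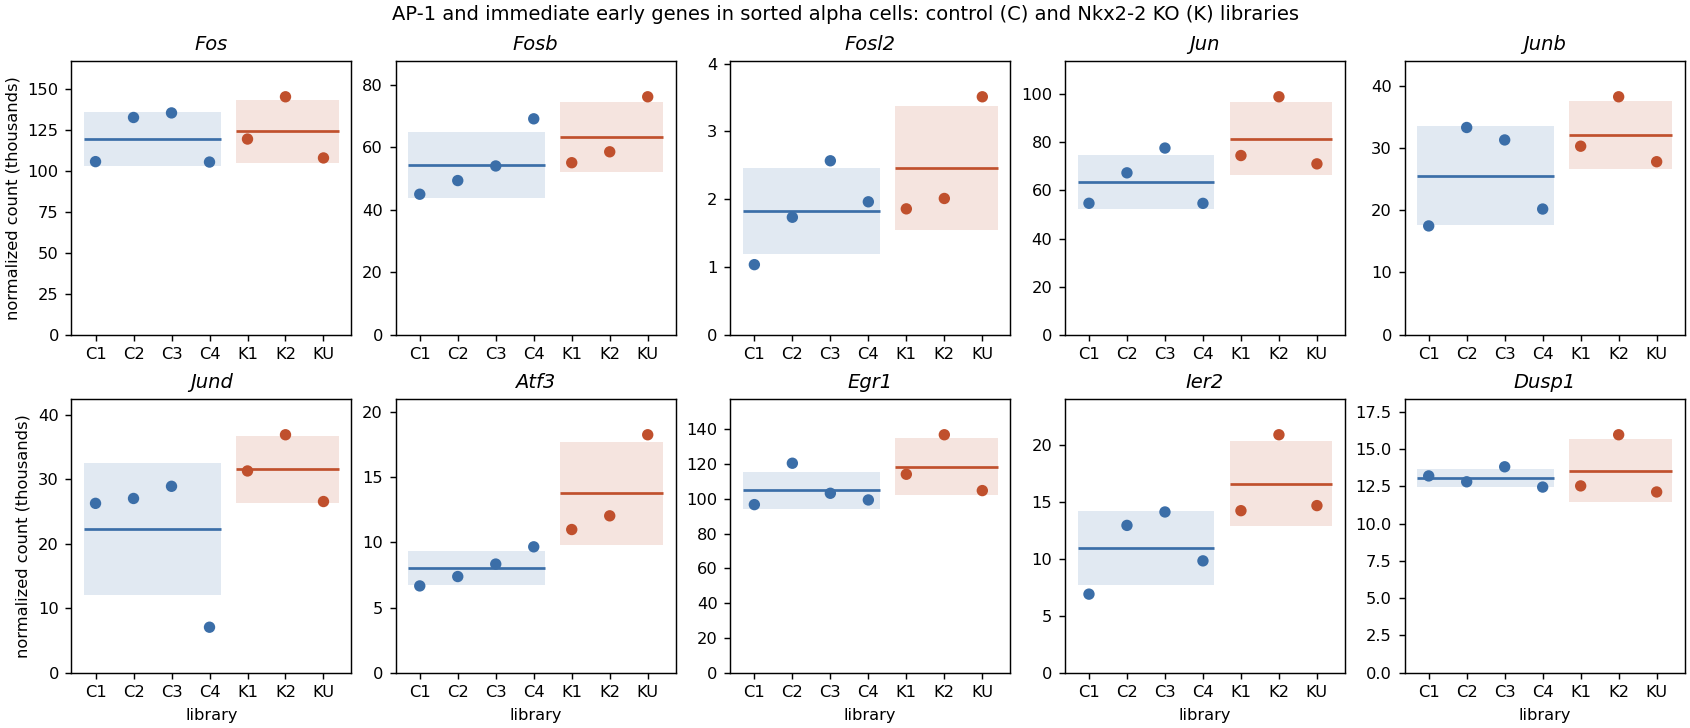
Normalized counts (tick labels scaled down as marked, axes from 0) of the 10 genes in controls 1 to 4 (C1 to C4, blue), KO 1 and 2 (K1, K2) and the unnumbered KO library (KU, red). Lines are group means and bands 1 SD to either side (n = 4 and n = 3). The KO libraries lie above all controls in Atf3 and Ier2, and Jund is low in control 4 at 7064.

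The RefSeq sequence upstream of 3 members is shown as a description of their promoters: Atf3 is the member called, Fosb the one whose order of libraries within each group was that of Atf3, and Fos the best studied target of serum and cAMP signalling. No link between these letters and the counts was tested, and Atf3 and Fos, which share a marked site, had r = -0.09 across libraries. Each run gives the 250 bases before the RefSeq start on GRCm38.p6, 5′ to 3′ on the strand of the gene. Capitals mark a cAMP response element core (TGACGT, or ACGTCA where it lies on the opposite strand) and a TATA box (TATAAA). The Atf3 window is chr1:191183334-191183583 on the minus strand, the Fos window chr12:85473640-85473889 on the plus strand and the Fosb window chr7:19310046-19310295 on the minus strand.
Atf3: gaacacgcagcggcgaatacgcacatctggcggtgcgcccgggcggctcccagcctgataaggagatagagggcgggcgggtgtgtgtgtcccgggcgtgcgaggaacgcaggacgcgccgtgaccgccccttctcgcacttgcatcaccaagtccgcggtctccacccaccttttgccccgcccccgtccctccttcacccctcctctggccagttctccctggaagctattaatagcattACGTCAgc
Fos: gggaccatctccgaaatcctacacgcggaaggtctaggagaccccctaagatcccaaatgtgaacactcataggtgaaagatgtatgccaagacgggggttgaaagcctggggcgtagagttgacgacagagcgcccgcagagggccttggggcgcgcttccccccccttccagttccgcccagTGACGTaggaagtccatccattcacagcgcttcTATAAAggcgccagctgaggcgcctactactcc
Fosb: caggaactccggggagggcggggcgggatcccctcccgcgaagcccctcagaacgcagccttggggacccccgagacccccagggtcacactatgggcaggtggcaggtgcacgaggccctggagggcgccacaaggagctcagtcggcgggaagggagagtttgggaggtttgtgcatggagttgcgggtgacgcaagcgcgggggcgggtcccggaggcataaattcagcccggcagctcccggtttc

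The core of the cAMP response element, the site bound by CREB and ATF proteins, began 8 bases before the start in Atf3 and 66 bases before it in Fos. Of the 8 members with a window (all but Egr1 and Ier2), 3 held the core: Atf3, Fos and Dusp1. It was found in 6.47% of 32851 windows of the same length. The full element TGACGTCA, which contains the core, was in 1 member, Dusp1, and in 1.55% of windows. The AP-1 site TGACTCA was in 0 of the 8 and in 4.46% of windows. The CArG box, the binding motif of serum response factor, was in 0 of the 8 and in 1.47% of windows. TATAAA began 33 bases before the start in Fos, was in 1 of the 8 members, and was in 12.4% of windows. Both strands were searched. A match says only that these letters are present. The RefSeq start of Atf3 lies 34706 bases inside the gene as GENCODE draws it, and that of Dusp1 53656 bases inside it, while the RefSeq start of Jund lies upstream of the GENCODE gene. Counts per gene do not separate the starts.

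The Fos family showed no call. Fos (ENSMUSG00000021250, chr12:85473890-85477273), the founding partner of Jun in AP-1, was the most abundant member. It had 105772, 132747, 135541 and 105512 normalized counts across controls 1 to 4, against 119574, 145396 and 108025 across the KO libraries. The groups overlapped throughout, with the unnumbered KO library beside the lowest controls. The KO level was 1.04 times that of the controls (95% interval 0.852 to 1.26, DESeq2 adjusted p 0.998), and the sign of this difference turned when control 1, control 4 or KO 2 was left out.

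Fosb (ENSMUSG00000003545, chr7:19302696-19310051) encodes a Fos protein whose splice form ΔFosB is long-lived. Its normalized counts were 45023, 49402, 54080 and 69189 in the controls and 55122, 58618 and 76248 in the KO libraries. The unnumbered KO library was the highest and control 4 came next, so the groups overlapped. The fold was 1.16 (0.926 to 1.46, DESeq2 adjusted p 0.781). Fosl2 (ENSMUSG00000029135, chr5:32135801-32157842), a Fos relative without the C-terminal activation domain of Fos and FosB, was the least abundant member. It had 1034, 1733, 2566 and 1961 normalized counts in the controls and 1857, 2010 and 3510 in the KO libraries, again highest in the unnumbered KO library and lowest in control 1. Its fold was 1.35 (0.912 to 2.0, DESeq2 adjusted p 0.676).

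The Jun family had folds from 1.26 to 1.42 with no call. Jun (ENSMUSG00000052684, chr4:95049034-95052222), the subunit activated by Jun N-terminal kinases, had 54651, 67309, 77608 and 54616 normalized counts in the controls and 74499, 98924 and 71040 in the KO libraries. KO 2 was the highest, and control 3 lay above KO 1 and the unnumbered KO library. The fold was 1.28 (1.03 to 1.6), with an unadjusted p of 0.0291 and an adjusted p of 0.295 in DESeq2, and 0.549 in edgeR. Junb (ENSMUSG00000052837, chr8:84974484-84978718), a weaker activator than Jun, had 17478, 33287, 31287 and 20191 normalized counts in the controls and 30282, 38220 and 27790 in the KO libraries. Controls 1 and 4 were low and controls 2 and 3 lay within the KO range. Its fold was 1.26 (0.934 to 1.69, DESeq2 adjusted p 0.673).

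Jund (ENSMUSG00000071076, chr8:70698949-70700616), the Jun family gene that is expressed most steadily in resting cells, was set apart by 1 library. Per library it had normalized counts of 26295, 27053, 28942 and 7064 across controls 1 to 4, against 31324, 36945 and 26577 in the KO libraries. Control 4 was far below every other library, and controls 2 and 3 lay within the KO range. The fold was 1.42 (0.707 to 2.83, DESeq2 adjusted p 0.911). Exons on the opposite strand cover 52.6% of the exon length of Jund. The antisense gene there, Gm11175 (chr8:70699162-70700080), had 500, 580, 496 and 0 counts across controls 1 to 4, against 773, 883 and 965 in the KO libraries. Without a stated strand setting, reads of overlapping genes cannot be assigned with certainty, so Jund is uncertain in control 4. Without control 4 the log2 fold change was 0.20 (SE 0.13, DESeq2 adjusted p 0.505), against 0.50 (SE 0.51) with all libraries, and without both of the deepest libraries it was 0.31 with an adjusted p of 0.0427.

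Atf3 (ENSMUSG00000026628, chr1:191170296-191218039), which encodes a stress-induced factor that represses as a homodimer and can activate with Jun proteins, had 6665, 7385, 8343 and 9666 normalized counts across controls 1 to 4, against 10994, 12046 and 18271 across the KO libraries. The groups did not overlap, and the unnumbered KO library was well above all others. Controls averaged 8015 ± 1298 normalized counts (SD, n = 4) and KO libraries 13770 ± 3933 (SD, n = 3). The fold was 1.72 (1.33 to 2.22), a log2 fold change of 0.78 (SE 0.19) with an adjusted p of 0.00198 by DESeq2 and 0.108 by edgeR. With each of the 7 libraries left out in turn Atf3 passed the DESeq2 threshold every time, with log2 fold changes from 0.52 to 0.92 and adjusted p from 1.48e-05 to 0.0311. The smallest change was the one without the unnumbered KO library. In edgeR without control 4 the adjusted p was 0.0661. Within the 2 deepest libraries Atf3 had 9666 normalized counts in the control and 18271 in the KO library. Among the other 5 the controls had at most 8343 normalized counts and the KO libraries at least 10994.

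Egr1 (ENSMUSG00000038418, chr18:34859823-34864984), a zinc finger factor induced through ERK and serum response factor, had 96647, 120444, 103169 and 99339 normalized counts in the controls and 114107, 136819 and 104713 in the KO libraries. KO 2 was the highest, and control 2 lay within the KO range. Its fold was 1.13 (0.95 to 1.34, DESeq2 adjusted p 0.743). Ier2 (ENSMUSG00000053560, chr8:84661331-84662852), a small nuclear protein gene of the same early wave, had 6890, 12917, 14094 and 9807 normalized counts in the controls and 14207, 20864 and 14652 in the KO libraries. The groups did not overlap, but control 3 lay just under KO 1. Its fold was 1.52 (1.11 to 2.06), with an unadjusted p of 0.00803 and an adjusted p of 0.126 in DESeq2, and 0.385 in edgeR. It passed the DESeq2 threshold without control 3 (adjusted p 0.0405).

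Dusp1 (ENSMUSG00000024190, chr17:26505590-26562128) encodes a nuclear phosphatase that switches off the p38, JNK and ERK kinases and is itself induced early. Its normalized counts were 13189, 12795, 13801 and 12442 in the controls and 12520, 15948 and 12113 in the KO libraries. Only KO 2 lay above the controls, whose SD of 583 around a mean of 13057 was small. The fold was 1.04 (0.879 to 1.22, DESeq2 adjusted p 0.997), and without KO 2 the log2 fold change was -0.086.

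Per exon length, the members ranked high among 17718 protein-coding genes in the controls. Fos had 904 ± 85.4 reads per kilobase and 1e6 reads of the library (RPKM, SD, n = 4), rank 13, Egr1 416 ± 38.1, rank 28, and Jun 353 ± 45.1, rank 33. These were the highest 3 levels of the set. Jund (234 ± 102), Junb (196 ± 53.3), Fosb (156 ± 37.6) and Ier2 (127 ± 33.5) followed with ranks from 53 to 102, and neighbours in that order lay within 1 SD of each other. Dusp1 had 70.1 ± 2.09 and rank 198, and Atf3 66.5 ± 13.4 and rank 217, levels that also lay within 1 SD. Fosl2 was far below, at 3.34 ± 1.1 RPKM and rank 7298. In the KO libraries Atf3 had a mean of 124 RPKM and Dusp1 one of 77.6.

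The libraries fell into different patterns for different members. KO 2 was the highest library for 7 members (Fos, Jun, Junb, Jund, Egr1, Ier2 and Dusp1), and the unnumbered KO library for the other 3 (Fosb, Fosl2 and Atf3). Control 1 was the lowest for 6, control 4 for 3 and the unnumbered KO library for 1, Dusp1. On the log2 scale, Atf3 deviated from its mean over all 7 libraries by 0.88 in the unnumbered KO library, where the median deviation of the other 9 members was 0.02. In KO 2 the values were closer, 0.28 for Atf3 and 0.31 for the others, and all 9 lay above their own mean. In control 4 Atf3 was at -0.04 and the others had a median of -0.20.

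**Figure D2:**
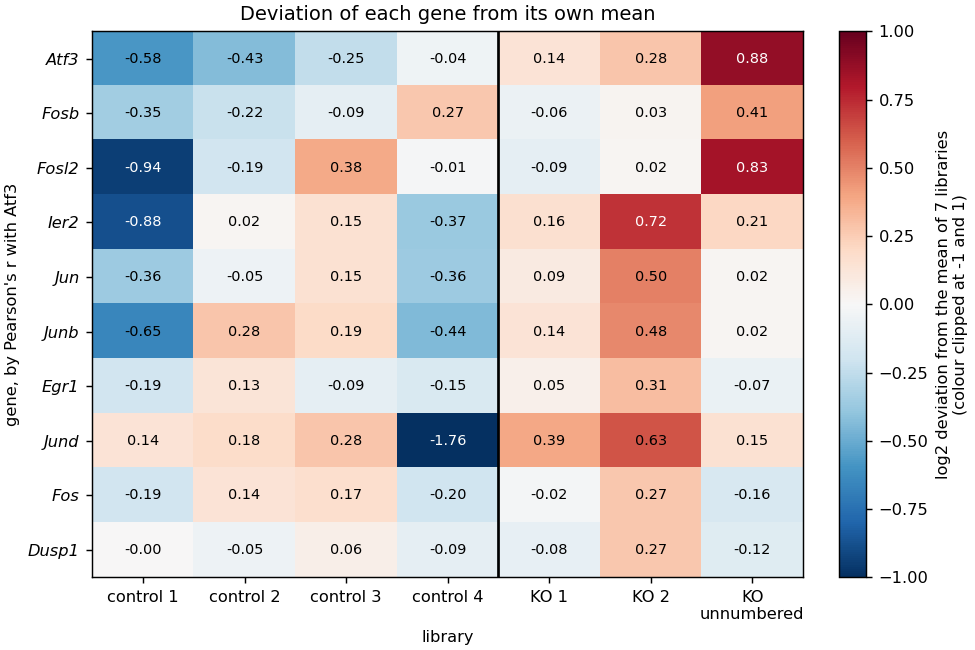
Log2 deviation of each gene (vertical axis, ordered by correlation with Atf3) from its own mean over the 7 libraries (horizontal axis), with colour clipped at -1 and 1. In the unnumbered KO library Atf3, Fosb and Fosl2 are at 0.88, 0.41 and 0.83, while Fos is at -0.16 and Dusp1 at -0.12, and in KO 2 all 10 genes are above 0.

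Markers of other cell types varied between the same libraries. The summed normalized counts of 6 endothelial markers were 216, 366, 290 and 262 in the controls and 156, 971 and 385 in the KO libraries, and those of 6 mesenchymal markers 1389, 1625, 3896 and 1815 in the controls and 3014, 4206 and 2311 in the KO libraries. Both sums were highest in KO 2, where 7 members were also highest, and their part in the members' values was not tested. The 6 acinar markers summed to between 155 and 11690, highest in control 3, where no member was highest. The 6 leukocyte markers summed to between 976 and 1545 in controls and between 888 and 1036 in KO libraries. Most of the sum was C1qa, which was called lower in KO by DESeq2 (adjusted p 0.0113) and not by edgeR (adjusted p 0.14). Every other leukocyte gene had a higher mean in KO than in controls. In Cd74 each KO library lay above all controls (KO mean 261, control mean 89.6, DESeq2 adjusted p 0.139), as in 6.07% of the genes tested. The groups overlapped in Ptprc, Cd68, Lyz2 and C1qb. Of the other leukocyte genes, Ptprc, Cd68 and C1qb were highest in the unnumbered KO library, where Atf3 was highest too. Ptprc had 0, 0, 20.9 and 2.89 normalized counts in the controls. It had at most 10.3 in KO 1 and KO 2 and 31.1 in the unnumbered KO library. Cd68 and C1qb reached 128 and 48.9 there. Lyz2 was highest in control 3 (28.8, against 14.8 in the unnumbered KO library) and Cd74 in KO 2 (287, against 250). The part of the leukocyte genes in the Atf3 value was not tested. In the unnumbered KO library the acinar, endothelial, mesenchymal and leukocyte marker sums were 995, 385, 2311 and 888 normalized counts. Its beta, delta and duct marker sums were 523430, 441321 and 11947. How much Atf3 RNA each of these cell types carried was not measured.

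Across the 7 libraries, Fosb followed Atf3 most closely of the 9 other members. Both genes put the controls in the order 1, 2, 3, 4 and the KO libraries in the order KO 1, KO 2, unnumbered. Pearson's r of log2(normalized count + 1) was 0.85 (exact permutation p over 5040 pairings 0.0141, two-sided, adjusted over 9 pairs 0.127) and Spearman's rho was 0.89 (p 0.0123 in the exact permutation test, adjusted 0.107). Without the 2 libraries farthest from the median of Fosb, control 4 and the unnumbered KO library, r was 0.93. On deviations from the group means, which removes the difference between KO and control, r was 0.95. Without control 4 the 6 libraries left gave r = 0.97 (exact permutation p 0.00139, adjusted 0.0125), which is past the threshold.

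**Figure D3:**
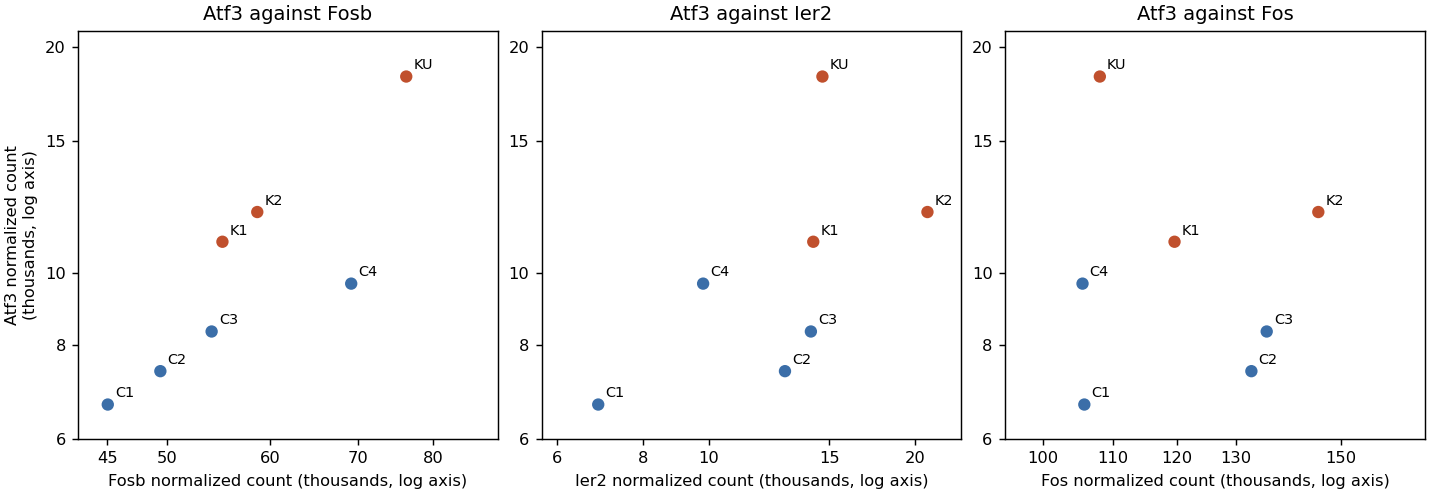
Normalized counts of Atf3 (vertical) against Fosb, Ier2 and Fos (horizontal) on log axes, for controls 1 to 4 (blue, C1 to C4) and the KO libraries (red, K1, K2 and the unnumbered KU). With Fosb the points rise along a separate line in each group, the KO points above the control points, and with Fos (r = -0.09) no such line is seen.

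Fosl2 had r = 0.78 with Atf3 (exact permutation p 0.0454, adjusted 0.204) and rho = 0.75 (exact permutation p 0.0663, adjusted 0.199). That relation rested on control 1 and the unnumbered KO library, without which r was -0.05. On deviations from the group means over all 7 libraries, Fosl2 had r = 0.83. Ier2 had r = 0.59 (exact permutation p 0.156, adjusted 0.468) and rho = 0.86 (exact permutation p 0.0238, adjusted 0.107), but r = 0.09 on deviations from the group means. The remaining 6 had r from -0.09 (Fos and Dusp1) to 0.43 (Jun), with unadjusted exact permutation p of at least 0.341. On deviations from the group means all 6 were below 0, from -0.57 in Jund to -0.14 in Junb. No pair of the 9 was past the threshold after adjustment with all 7 libraries on normalized counts. On counts scaled to the library total the sign turned for Fos (r = 0.32) and Dusp1 (r = 0.50), and Fosb passed (r = 0.90, exact permutation p 0.00536, adjusted 0.0482). With that scaling r was above 0 for every pair, at 0.60 for Egr1 and 0.62 for Jun. Spearman's rho was then 0.86 for each of Jun, Egr1 and Ier2 (exact permutation p 0.0238, adjusted 0.0536). For Fosb rho was 0.89 (exact permutation p 0.0123, adjusted 0.0536).

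The ratio of Atf3 to another member within a library does not depend on the scaling between libraries. This comparison was chosen after the data were seen. For every 100 counts of Fosb there were 14.8, 14.9, 15.4 and 14.0 counts of Atf3 across controls 1 to 4, against 19.9, 20.6 and 24.0 across the KO libraries. The controls were nearly equal and every KO library was above them, with means of 14.8 ± 0.606 (SD, n = 4) and 21.5 ± 2.17 (SD, n = 3). The difference of the log2 ratios was 0.54 (exact permutation p 0.0286, two-sided, the smallest that 35 splits allow, adjusted over 9 ratios 0.257). This was the only 1 of the 9 ratios in which the groups did not overlap, where 12.0% of all genes tested had groups of normalized counts that did not overlap.

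Against Fos, the counts of Atf3 per 100 counts were 6.30, 5.56, 6.16 and 9.16 in the controls and 9.19, 8.29 and 16.9 in the libraries labelled KO, a log2 difference of 0.71 (exact permutation p 0.0857). Control 4 overlapped the KO libraries there. Against Dusp1 the log2 difference was 0.72 (exact permutation p 0.0857) and against Egr1 0.59 (exact permutation p 0.114). Against Jun, Junb, Fosl2, Ier2 and Jund it was 0.40, 0.39, 0.31, 0.13 and 0.08, with exact permutation p from 0.314 to 0.943. Thus all 9 differences were above 0, and 0 passed the threshold after adjustment. All 9 ratios share the Atf3 counts, so they are not separate results.

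**Figure D4:**
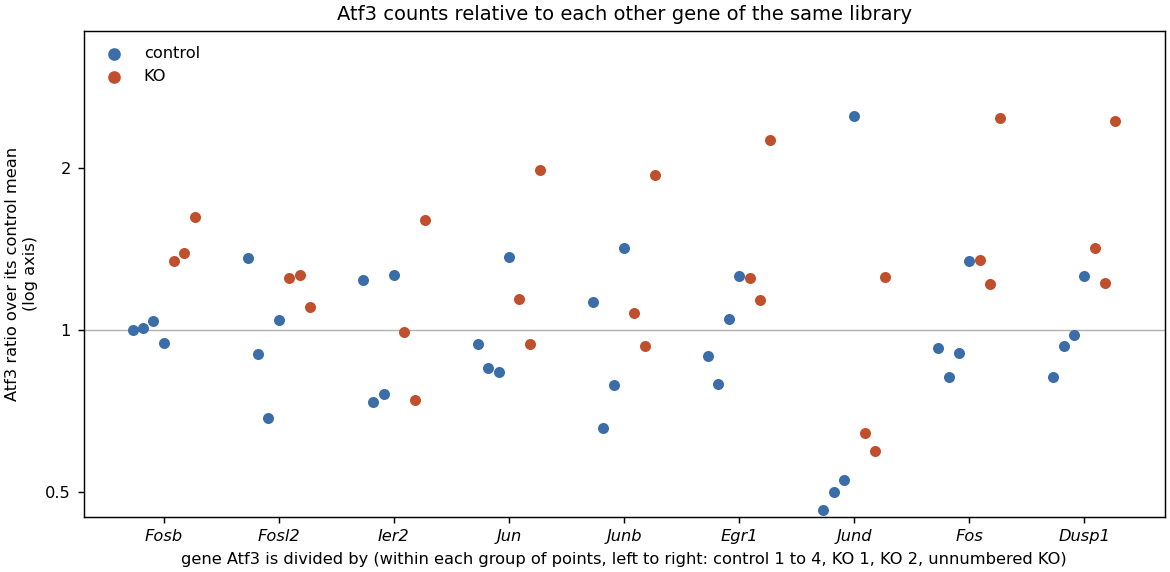
Ratio of Atf3 counts to the counts of each other member in the same library, divided by the mean ratio of the controls (log axis), for controls (blue) and KO libraries (red). With Fosb the 3 KO points lie above all 4 control points, and with Jund control 4 is the highest because Jund is low there.

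The same question was put in DESeq2 across all genes. With the median deviation of the other 9 members as a covariate, the log2 fold change of Atf3 was 0.81 (SE 0.23, adjusted p 0.0149), against 0.78 without it, in a fit that called 1.69% of genes higher. With Fosb as the covariate, chosen after the data were seen, it was 0.51 (SE 0.10, adjusted p 6.46e-05). The median does not hold each member level: in the unnumbered KO library it was 0.02, where Fosb deviated by 0.41 and Fosl2 by 0.83. Fosb was picked as the closest follower of Atf3 in these same libraries, so the SE and adjusted p of the fit with Fosb are a description. No edgeR fit was made with either covariate.

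The 5 genes whose log2 counts followed Atf3 most closely, of 12765 with a mean of at least 100 normalized counts, were Sorcs1 (r = 0.983 over 7 libraries), Zfp563 (0.982), Epb41l5 (0.973), Snap23 (0.972) and Celf2 (0.970). They were picked as the highest of 12765 values, so r is a description. Celf2, which encodes an RNA-binding regulator of splicing, was the only 1 of these 5 called (log2 fold change 0.49, DESeq2 adjusted p 0.00604). Among the same 12765 genes Fosb ranked 135, Fosl2 289, Ier2 1255 and Fos 6625.

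Of 103 further genes of the pathway in 6 lists, 9 were called in DESeq2 and 2 in edgeR, beside the 4.51% and 1.05% of all genes. The other immediate early genes gave 3 of 28, all higher in KO, with a list median log2 fold change of 0.28. Ccn1, which encodes a secreted matrix protein, had 186, 599, 305 and 212 normalized counts in the controls and 994, 1508 and 1100 in the KO libraries (log2 fold change 1.89, SE 0.36, adjusted p 1.43e-05 by DESeq2 and 0.0548 by edgeR). Rhob, a small GTPase gene, had 6925, 6558, 6273 and 6179 in the controls and 8470, 11203 and 9185 in the KO libraries (0.57, SE 0.12, adjusted p 0.000198 by DESeq2 and 0.0532 by edgeR). For both, every KO library was above every control, and both passed in DESeq2 whichever single library was dropped, 7 times of 7. Without both of the deepest libraries Ccn1 had an adjusted p of 0.105.

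Myc, the growth factor-responsive oncogene, had 522, 692, 374 and 319 normalized counts in the controls and 908, 966 and 768 in the KO libraries (0.89, SE 0.27, adjusted p 0.0231 by DESeq2 and 0.182 by edgeR). Its groups did not overlap, but it passed in 3 of the 7 single-library omissions, failing without control 1, control 3, KO 1 or KO 2 (adjusted p up to 0.202). Egr2, a close relative of Egr1, also had groups that did not overlap, with 337, 1618, 1693 and 1397 in the controls and 1979, 3034 and 2841 in the KO libraries, and a DESeq2 adjusted p of 0.483. Gadd45b, a stress-induced gene, was the other uncalled gene of the list without overlap, in the opposite direction, with 3358, 3219, 6388 and 3522 in the controls and 2486, 2796 and 2446 in the KO libraries (-0.68, DESeq2 adjusted p 0.0589). Both were picked after their values were seen.

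The other AP-1 and related leucine zipper factors gave 0 of 10 calls, with 8 tested and a median of -0.08. Heat shock and chaperone genes, which dissociation also induces, gave 0 of 13, with a median of 0.10. In the integrated stress response list 1 of 18 was called, with 15 tested and a median of 0.00. That gene was Slc3a2, the heavy chain of amino acid transporters, which was lower in KO, with 8199, 6920, 9034 and 6623 normalized counts in the controls and 4175, 4377 and 3448 in the KO libraries (-0.94, adjusted p 2.52e-08 by DESeq2 and 0.0202 by edgeR). The list's central factor gene Atf4 had a log2 fold change of 0.11 (DESeq2 adjusted p 0.934), and Ddit3, which encodes CHOP, -0.02 (0.999). These counts measure RNA and not the proteins. Uncalled, Chac1 had every KO library above every control (0.39, DESeq2 adjusted p 0.643). Asns had every KO library below every control (-0.23, DESeq2 adjusted p 0.563). Chac1 and Asns were picked after their values were seen.

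The list of MAPK phosphatases and ERK feedback genes, of which 13 of 15 were tested, had 3 calls, all lower in KO, and a median of -0.27. Spry1, an inhibitor of receptor tyrosine kinase signalling, had 425, 326, 778 and 375 normalized counts in the controls and 184, 233 and 164 in the KO libraries (-1.30, adjusted p 0.00271 by DESeq2 and 0.112 by edgeR), and exons on the opposite strand cover 24.4% of its exon length. Dusp6, the cytoplasmic ERK phosphatase gene, had 562, 348, 1009 and 707 in the controls and 372, 339 and 196 in the KO libraries (-1.12, adjusted p 0.0306 by DESeq2 and 0.248 by edgeR). Dusp10, a phosphatase gene for JNK and p38, had 3542, 2405, 5061 and 4563 in the controls and 2264, 2149 and 2540 in the KO libraries (-0.75, adjusted p 0.0202 by DESeq2 and 0.204 by edgeR).

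Spry1 had groups that did not overlap, while in Dusp6 and Dusp10 control 2 lay within the KO range. Spry1 passed in DESeq2 in each of the 7 single-library omissions. Dusp6 passed in 3 of them, failing without control 1, control 3, KO 2 or the unnumbered KO library (adjusted p up to 0.232), and Dusp10 in 4, failing without control 3, KO 1 or KO 2 (up to 0.157). Without both of the deepest libraries the adjusted p in DESeq2 was 0.587 for Dusp6 and 0.393 for Dusp10. Dusp1, a phosphatase gene of the same family, had a log2 fold change of 0.05, and the difference between it and these genes was not tested.

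Of the upstream kinases and factors, 2 of 19 were called, with a list median of -0.06. Mapk10, the JNK gene typical of neurons and endocrine cells, had 2088, 2312, 1600 and 2196 normalized counts in the controls and 2739, 3359 and 3303 in the KO libraries (0.61, adjusted p 0.00352 by DESeq2 and 0.0877 by edgeR). It failed without KO 2 (adjusted p 0.0656). Map2k1, which encodes the ERK kinase MEK1, had 3832, 3708, 4068 and 3277 in the controls and 2752, 2577 and 2485 in the KO libraries (-0.51, adjusted p 0.00039 by DESeq2 and 0.0466 by edgeR). In both genes the groups did not overlap, a pattern found in 12.0% of the genes tested. Uncalled, Elk3, Creb1 and Map2k7 had every KO library below every control, and were picked after their values were seen. Their log2 fold changes were -0.47, -0.18 and -0.19 (DESeq2 adjusted p 0.148, 0.538 and 0.57).

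**Figure D5:**
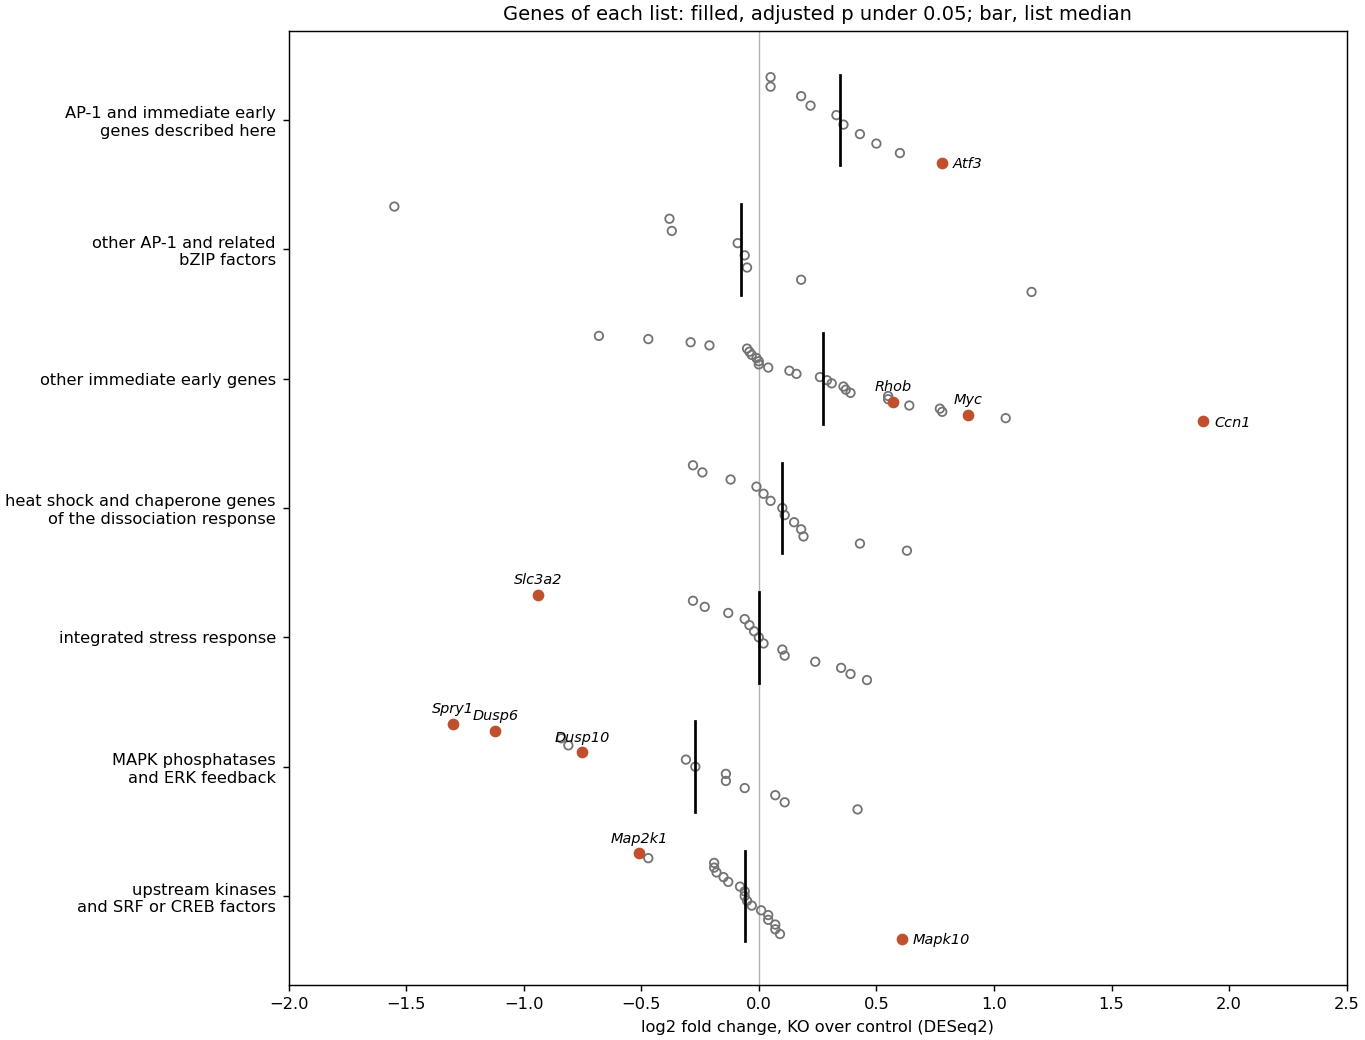
Log2 fold change (KO over control, DESeq2) of each tested gene in the 10 members and the 6 pathway lists. Filled points have an adjusted p under 0.05 and bars are list medians, at 0.34 for the members, 0.28 for the other immediate early genes and -0.27 for the phosphatase and feedback list.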

How the data were processed

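Sorted alpha cells were profiled in 4 control and 3 KO libraries. Per the labels' protocols, the RNA (Qiagen RNeasy Micro) went into a strand-specific Takara SMARTer total RNA kit for low input. The labels call the libraries depleted of ribosomal RNA in one field and polyadenylated RNA in another. The submitters' processing notes name FastQC, STAR, featureCounts, DESeq2 and the build mm10. Versions and the strand setting are not given in the sources used here. The authors deposited whole-number counts per gene, and all 55536 identifiers matched GENCODE M21 on GRCm38, from which positions and exon lengths were taken.

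The model was DESeq2 1.42.0 under R 4.3.3 (Wald tests on all 7 libraries, no covariate, as the design text states, genes without any count dropped, independent filtering at 0.05, default Cook filter). The edgeR 4.0.16 quasi-likelihood test was run beside it. Adjusted p-values are Benjamini-Hochberg over all genes tested, with a threshold of 0.05. The filtering followed an earlier analysis of these counts, and the members, lists and tests were chosen with earlier results of these data known. Normalized counts are counts divided by DESeq2 size factors, in which fold changes and their 95% intervals were fitted. RPKM was computed here from library totals and exon length. Both fits were tested on simulated counts.

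Correlations with Atf3 used log2(normalized count + 1) with exact permutation over pairings. The genes named are the 10 members, each listed gene past the threshold, the 5 genes most correlated with Atf3 and Nkx2-2. Other genes are named as chosen after the data were seen or as background to a list (Atf4 and Ddit3). Motifs were searched by letters in RefSeq windows. Counts carry no molecular identifiers, and how far depth limits the precision was not tested. Alternatives were scaling, filtering, tool, left-out libraries, a replicate block, and added covariates.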

Additional observations from a re-analysis of the deposited data

Results flagged for a closer look

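Jund had 7064 normalized counts in control 4, where the other controls had 26295, 27053 and 28942. The gap to the nearest control was 0.879 of the range of the 4 controls, above the 95% critical value of Dixon's test for 4 values. It was the 1 such value among 20 groups of 4 control values examined, where chance gives about 1.0. The antisense gene Gm11175, which lies in the same locus, had 0 counts in that library and from 496 to 965 in the others. The part of the overlap in the low value was not tested.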

How the results depend on the processing

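The number of genes called was 792 in DESeq2, 203 in edgeR, 249 in edgeR without control 4, 1379 with a term for the 2 deepest libraries, and from 430 to 910 when 1 library was left out. The number of members called was 1 in DESeq2 and 0 in edgeR with all libraries and without control 4. It was 3 with total-count size factors (Jun, Atf3 and Ier2), which moved the median of all genes to 0.11, 2 without the 2 deepest libraries (Jund and Atf3), 2 with a term for them (Jun and Atf3), and from 1 to 2 when 1 library was left out. Of the 103 pathway genes, 9 were called in DESeq2, 2 in edgeR, 2 in edgeR without control 4, and from 6 to 11 when 1 library was left out. The edgeR fit without control 4 and the fit with the added term were chosen after seeing the data.

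The log2 fold change of Fos turned to -0.0048 without control 1, -0.0042 without control 4 and -0.077 without KO 2, in a range up to 0.14 over the 7 omissions, and that of Dusp1 to -0.086 without KO 2, in a range up to 0.12. The log2 fold change of Atf3 stayed between 0.51 and 0.92 in all 17 alternatives, and 2 of them missed the threshold: edgeR (0.78, adjusted p 0.108) and edgeR without control 4 (0.89, adjusted p 0.0661). Of the 9 correlations with Atf3, 0 passed after adjustment, 1 passed (Fosb) on counts scaled to the library total and 1 (Fosb) without control 4. The cause of these changes was not tested.

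A replicate block was possible only for controls 1 and 2 and KO 1 and 2. Control 3, control 4 and the unnumbered KO library were left out of it. With a term for the number beside the group, these few libraries leave very little to measure the spread, so small p-values carry little weight. The DESeq2 fit with the block called 580 genes, 7 of the pathway genes and 4 members, Jun (adjusted p 7.56e-06), Jund (0.016), Atf3 (3.9e-09) and Ier2 (3.77e-11). Under the block Myc (0.64, adjusted p 0.0997), Dusp6 (-0.32, adjusted p 1), Dusp10 (-0.41, adjusted p 0.184) and Spry1 (-0.85, adjusted p 0.259) were not called. The numbers are not known to pair the samples: deviations from the group means correlated at 0.29 for control 1 with KO 1 and 0.283 for control 2 with KO 2, against 0.068 and -0.11 across these numbers, at 0.102 and 0.377 for control 3 with KO 1 and KO 2, and at 0.48 for control 4 with the unnumbered KO library. What depth limits was not tested by thinning the counts. The member with the fewest counts, Fosl2, had from 911 to 4738 per library.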

Other observations

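All 7 libraries of control and KO cells had the sum of the 10 members between 373645 (control 1) and 565791 normalized counts (KO 2). Control 3, at 469433, and control 2, at 465070, lay above KO 1 (464486) and the unnumbered KO library (462941). The groups thus overlapped in the sum, while they did not in Atf3 and Ier2. Fos, Egr1 and Jun made up most of the sum in every library. The heat shock and chaperone list had its lowest sum in control 4, at 114780, and between 164916 and 196983 in the other 6 libraries.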
